A study of Arabidopsis thaliana with 4 samples.

Results

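The ERF and DREB transcription factors of Arabidopsis thaliana were examined in seedlings of the mutant fip1-2 and of a control line. They are DNA-binding proteins of the AP2/ERF family, and the 60 genes described here were taken by locus identifier from the 27654 genes of the deposited count table, where all 60 have a row. The rule that picks them uses no measured value. They comprise 15 genes of ERF group IX, 9 of group VIII, 5 of group VII, 3 of group X, 6 cytokinin response factor genes, 3 SHINE genes, 6 CBF and DDF genes, 2 TINY genes, 3 DREB2 genes, 6 genes of the DEAR and RAP2.1 type and 2 of the RAP2.4 type.

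The series measured polyadenylated RNA in whole seedlings of ecotype Columbia grown in Murashige and Skoog medium, with 2 libraries of fip1-2 and 2 libraries of control. FIP1, after which the mutant is named, belongs to the complex that cuts new transcripts and adds their poly(A) tails. The control is the SKP2B::GUS line, in which the SKP2B promoter drives the GUS reporter enzyme. The labels leave unstated the lesion in fip1-2, whether the mutant also carries the reporter, and whether replicates came from separate cultures, so the p-values measure a spread between libraries that may be technical.

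AP2/ERF proteins bind short DNA elements through the AP2 domain. ERF proteins prefer the GCC box of ethylene- and pathogen-responsive promoters, while DREB proteins prefer the dehydration-responsive element of cold- and drought-responsive promoters. Some members activate their targets and others, those that carry an EAR repression motif, silence them. In seedlings many of these genes are switched on within minutes by touch, wounding, cold or ethylene, and the mRNAs of several are short-lived.

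Levels of single genes are normalised counts, reads divided by a size factor of the library. Library totals ran from 20874114 to 21104606 reads assigned to genes. The FIP1 transcript stood at 5217 and 5145 in the fip1-2 libraries, against 1796 and 1912 in the control libraries, higher in the mutant, and since this sum does not resolve regions of the gene it checks nothing about the protein. Shoot and root markers were present in every library. The 5 root markers all passed upward and summed to 10648 and 10452 normalised counts in the fip1-2 libraries and to 5041 and 4917 in the control libraries, while the 4 shoot markers gave 2 rises and 1 fall. The 5 seed markers, with summed levels of 3328 and 1223 in fip1-2 and of 77.8 and 25.2 in control, were higher in both fip1-2 libraries, though OLEO1, OLEO2 and SESA1 had a mean under 10 in control. In whole seedlings, fewer cells of a type and less RNA per cell cannot be told apart, and the part of tissue makeup in the results below was not tested.

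Most ERF and DREB transcripts that could be tested were lower in fip1-2. Of the 60 members, 50 reached a mean of at least 10 normalised counts and were tested with limma on log2(value + 2), a scale that understates the change of weakly expressed genes. At a Benjamini-Hochberg adjusted p under 0.05 over all 19931 genes tested, 30 members fell, 3 rose, 17 did not pass and 10 were too low to test. Among all genes tested 26.8% fell and 27.0% rose. The median log2 fold change was -0.40 over the 50 members tested and 0.00 over all genes. edgeR on the recovered reads also gave 30 falls and 3 rises, where 26.7% of all genes fell and 27.1% rose. Falls of at least 2-fold were called in 11 members. Among all genes 3.76% fell and 4.64% rose by that much, and the largest called rise in a member was 1.58-fold. Both fip1-2 libraries lay below both control libraries in 38 of the 50 members tested, where 39.0% of all genes did, and above them in 6, where 38.2% did.

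A low level in 1 group can make a gene pass the filter through the other. ERF1, ERF13, RRTF1, DDF1 and TINY2 had a mean under 10 in fip1-2 alone and are in this position. Over the 45 remaining members tested, 26 fell (7 of them at least 2-fold), 3 rose and 16 did not pass, with a median log2 fold change of -0.40.

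**Figure D1:**
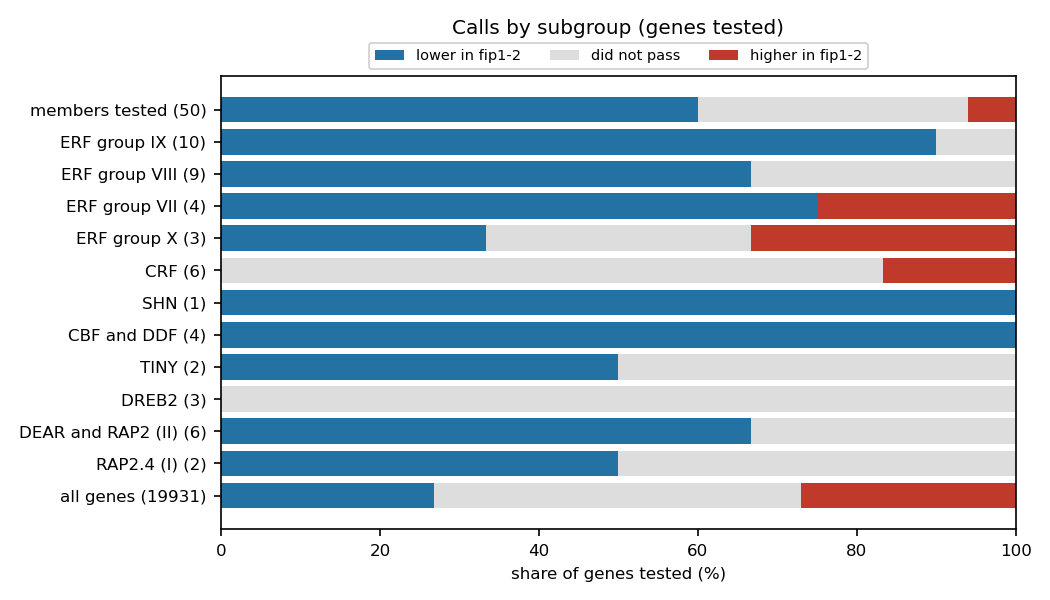
Share of genes tested that were called lower in fip1-2, called higher in fip1-2 or did not pass, for the members, for each subgroup (number tested in brackets) and for all genes. The bars show 9 of 10 genes of group IX and 4 of 4 CBF and DDF genes as lower, and no DREB2 gene called in either direction, beside 26.8% lower over all genes. They include ERF1, ERF13, RRTF1, DDF1 and TINY2, which passed the filter through control alone. Without these, 7 of 8 genes of group IX and 3 of 3 CBF and DDF genes were lower.

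Genes of group IX, the ethylene- and jasmonate-linked activators, fell in 9 of the 10 cases tested, and the tenth, ERF15, did not pass. The median log2 fold change was -0.98. Without ERF1 and ERF13, which passed the filter through control alone, 7 of 8 fell, with a median of -0.88. Of all genes tested 26.8% fell, and of intron-free protein-coding genes, a class that holds all of group IX, 38.8% did. The group's summed level was 4704 and 4801 normalised counts in the fip1-2 libraries and 8251 and 8573 in the control libraries. In all 10 genes, ERF1 and ERF13 among them, both fip1-2 libraries lay below both control libraries, where 39.0% of all genes tested did.

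ORA59 (AT1G06160), which integrates ethylene and jasmonate signals and activates defensin genes, stood at 61.5 and 68.5 in the fip1-2 libraries, against 192 and 178 in the control libraries. The groups were far apart, and its log2 fold change was -1.48 ± 0.14 SE (adjusted p = 8.66e-07). ERF1 (AT3G23240), a direct target of the ethylene regulator EIN3 with a similar role, stood at 11.3 and 7.27 in the fip1-2 libraries, against 37.5 and 21.4 in the control libraries. Its control libraries differed from each other by more than its fip1-2 libraries did, and the log2 fold change of -1.45 ± 0.36 (adjusted p = 0.00356) no longer passed without control replicate 1 (-1.07, adjusted p = 0.058). Its adjusted p spanned 0.000216 to 0.058 over the alternatives.

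The GCC-box activator genes ERF2 (AT5G47220) and ERF1A (AT4G17500) fell by nearly the same factor. ERF2 had 279 and 258 in fip1-2, against 509 and 548 in control, with a log2 fold change of -0.97 ± 0.09 (adjusted p = 3.26e-07). ERF1A had 274 and 349 in fip1-2, against 612 and 624 in control, with a 95% interval of -1.21 to -0.78 for the log2 fold change (adjusted p = 1.28e-06). ERF5 (AT5G47230) and ERF6 (AT4G17490), paralogous genes of chitin and osmotic stress responses, also fell. ERF5 had 149 and 137 in fip1-2, against 314 and 287 in control, with a log2 fold change of -1.06 ± 0.11. ERF6 had 224 and 226 in fip1-2, against 355 and 360.1 in control, with a log2 fold change of -0.66 ± 0.09, and neither gene had overlapping groups. The ERF1A and ERF6 genes neighbour each other on chromosome 4.

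DEWAX (AT5G61590), a repressor of wax synthesis genes, was the most abundant group IX transcript per length of transcript, at 2571 per kb in fip1-2 and 4421 per kb in control. It stood at 3208 and 3251 in the fip1-2 libraries, against 5343 and 5764 in the control libraries, a 1.72-fold lower level in fip1-2 (log2 fold change -0.78 ± 0.05, adjusted p = 1.89e-08). Its neighbour ERF104 (AT5G61600), whose protein is a substrate of the immune kinase MPK6, had 417 and 429.7 in fip1-2, against 771 and 674 in control, and fell with a log2 fold change of -0.76 ± 0.08. ERF13 (AT2G44840) had 9.22 and 2.08 in fip1-2, against 23.1 and 26.2 in control, so few reads that its log2 fold change of -1.98 ± 0.46 depended on the setting. It became -1.31 with a pseudocount of 8, and leaving out fip1-2 replicate 1 or fip1-2 replicate 2 gave -2.71 or -1.25, each still past the threshold. ERF15 (AT2G31230), an activator of abscisic acid and immune responses, had 68.6 and 68.5 in fip1-2, against 91.3 and 87.4 in control. Its groups did not overlap, but the log2 fold change of -0.37 had an adjusted p of 0.0669 (95% interval -0.72 to -0.02).

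The other 5 genes of group IX were not tested. ESE1, ERF105 and AT5G43410 had no read in any library, which allows up to 3 reads per library, or 2.88 to 3.11 normalised counts. ERF105 overlaps AT5G51180 on the opposite strand, and reads of overlapping genes cannot be told apart when counting without strand. ERF98, a regulator of ascorbate synthesis, had 1.02 and 1.04 in fip1-2, against 3.84 and 1.94 in control, and ERF14 had 2.05 and 3.11 in fip1-2, against 0 and 0.971 in control. ESE1, ERF98 and ERF1 lie side by side on chromosome 3, and only ERF1 of these had more than 4 normalised counts in any library.

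**Figure D2:**
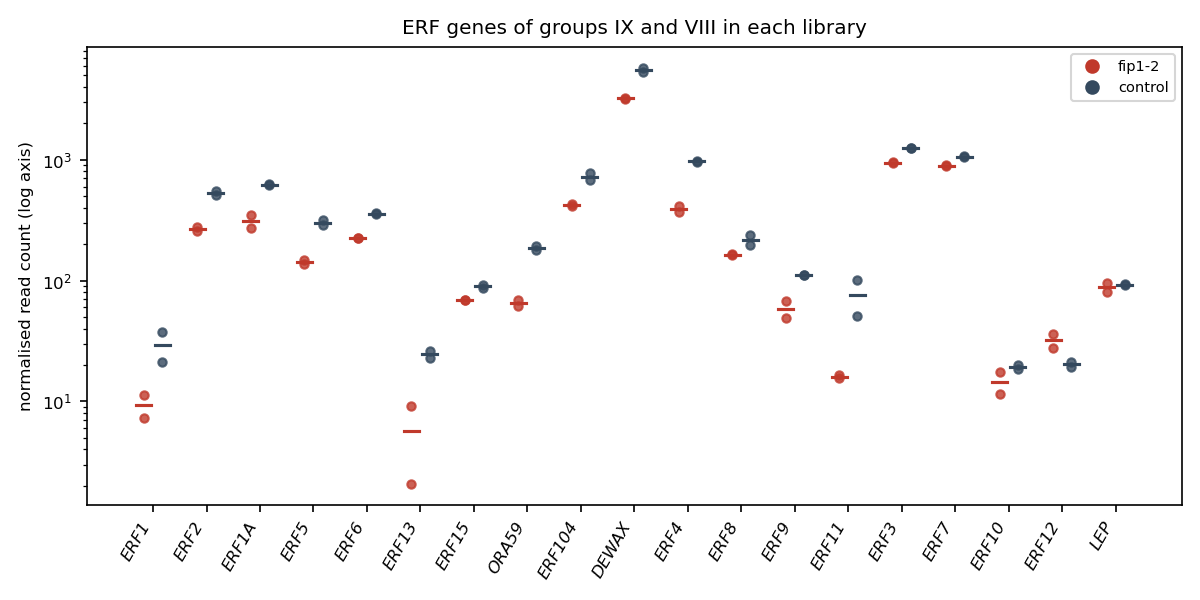
Normalised read count, on a log axis, of the ERF genes of groups IX and VIII that were tested, for the 2 fip1-2 libraries (red) and the 2 control libraries (grey). Points are libraries and bars are group means. The fip1-2 libraries lie below the control libraries in every gene drawn except ERF12, where they lie above, and LEP, where they overlap.

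Genes of group VIII, mostly repressors with an EAR motif, fell in 6 of 9 cases, and 3 did not pass. The median log2 fold change was -0.40. Of all genes tested 26.8% fell, and of intron-free protein-coding genes, as these 9 are, 38.8% did. The summed level of the group was 2560 and 2653 normalised counts in the fip1-2 libraries and 3842 and 3786 in the control libraries. The size of the fall differed widely among these genes, from 1.18-fold in ERF7 to 4.11-fold in ERF11.

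ERF4 (AT3G15210), a repressor of jasmonate-responsive defence genes, stood at 369 and 416 in the fip1-2 libraries, against 959 and 978 in the control libraries. The groups were far apart, with a log2 fold change of -1.30 ± 0.07 (adjusted p = 4.28e-09, the smallest among the members). ERF11 (AT1G28370), a repressor of ethylene synthesis genes, stood at 16.4 and 15.6 in the fip1-2 libraries, against 102 and 50.5 in the control libraries. The control libraries differed about as much from each other as a 2-fold change, and the log2 fold change of -2.04 ± 0.30 (adjusted p = 4.59e-05) ran from -2.53 to -1.55 when single libraries were left out. ERF9 (AT5G44210), a repressor of defensin genes, had 67.6 and 48.8 in fip1-2, against 110.5 and 111 in control, with a log2 fold change of -0.92 ± 0.18 (adjusted p = 6.34e-04).

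ERF3 (AT1G50640) and ERF7 (AT3G20310), abundant repressors of which ERF7 acts in abscisic acid responses, fell by small amounts with tight replicates. ERF3 had 937 and 956 in fip1-2, against 1256 and 1242 in control, with a log2 fold change of -0.40 ± 0.06. ERF7 had 883 and 908 in fip1-2, against 1046 and 1073 in control, with a log2 fold change of -0.24 ± 0.06. ERF8 (AT1G53170) had 162 and 165 in fip1-2, against 238 and 198 in control. Its log2 fold change of -0.41 ± 0.12 (adjusted p = 0.0104) did not pass without control replicate 1 (adjusted p = 0.139), without fip1-2 replicate 1 (0.0584) or with DESeq2 (0.0959), in a span of 0.00137 to 0.139. ERF12, which neighbours ERF11 on chromosome 1, had 27.7 and 36.3 in fip1-2, against 19.2 and 21.4 in control, so that the groups did not overlap in the other direction, with an adjusted p of 0.08 (log2 fold change 0.60, 95% interval 0.01 to 1.19). ERF10 had a log2 fold change of -0.40 (95% interval -1.11 to 0.31), and LEP, a gene of leaf blade development, one of -0.08 (-0.43 to 0.26).

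The 250 bases before the annotated start of ORA59 and ERF11 are shown because these are the called members whose window holds a GCC box, the element that ERF proteins themselves bind. They were read from the RefSeq TAIR10.1 genome by its own annotation, since the sources used here name no build for the count table. ORA59 is at chr1:1882657-1882906, plus strand, and ERF11 at chr1:9956981-9957230, minus strand. Each runs 5′ to 3′ toward the gene, with capitals for GCCGCC, for CCGAC, the core of the dehydration-responsive element, and for CGCGTT, on either strand.
ORA59: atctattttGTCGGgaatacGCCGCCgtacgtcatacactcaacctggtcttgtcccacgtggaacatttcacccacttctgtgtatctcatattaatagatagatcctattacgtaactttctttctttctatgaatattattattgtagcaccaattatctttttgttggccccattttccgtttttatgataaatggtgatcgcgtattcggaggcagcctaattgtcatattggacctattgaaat
ERF11: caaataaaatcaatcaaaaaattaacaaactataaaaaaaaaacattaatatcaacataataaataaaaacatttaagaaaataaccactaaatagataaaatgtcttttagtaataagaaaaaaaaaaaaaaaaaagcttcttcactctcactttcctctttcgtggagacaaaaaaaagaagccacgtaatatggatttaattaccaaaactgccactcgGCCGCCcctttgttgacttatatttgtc

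The windows of 4 of the 60 members (6.67%) held GCCGCC, on either strand, against 1.87% of 27442 protein-coding genes, and 2 of the 4, ERF15 and CRF6, did not pass the test. CCGAC was present in 7 members (11.7%, against 12.0%), of which 6 fell, and CGCGTT in 3 (5.0%, against 2.59%). TTGAC, the core of the W box bound by WRKY factors, was found in 24 members (40.0%, against 44.9%), of which 14 fell and 1 rose. ACGTG, the core of the abscisic acid-responsive element, was found in 25 members (41.7%, against 22.9%), of which 11 fell and 1 rose. The carriers include untested members, 3 with TTGAC, 4 with ACGTG and 1 with CGCGTT. Of all 60 members 30 fell and 3 rose, and the calls among carriers of TTGAC and ACGTG lay near those shares. Over all genes tested, 26.8% fell and 27.0% rose. A match is a description of the letters and does not show binding.

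Genes of group VII, whose proteins act in the response to low oxygen, moved in both directions, with 3 falls and 1 rise among 4 tested. Over all genes tested the shares were 26.8% and 27.0%. RAP2.3, RAP2.12 and RAP2.2 are made constitutively and their proteins are degraded when oxygen is present, while HRE1 and HRE2 are induced by low oxygen. RAP2.3 (AT3G16770) was the most abundant of the 60 members per length of transcript, at 8762 per kb in fip1-2 and 6299.9 per kb in control. It stood at 11464 and 11424 in the fip1-2 libraries, against 7585 and 8870.1 in the control libraries, and both fip1-2 libraries were higher (log2 fold change 0.48 ± 0.06, adjusted p = 1.93e-05). RAP2.12 (AT1G53910), an activator of the same response, stood at 2917 and 3070.0 in the fip1-2 libraries, against 4859.6 and 4944 in the control libraries, and fell with a log2 fold change of -0.71 ± 0.05 (adjusted p = 3.34e-08). Of the 50-base stretches of its exons, 22.3% occur elsewhere in the genome, so the counting could have split or dropped some of its reads.

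RAP2.2 (AT3G14230) had 2178 and 2226 in fip1-2, against 2413 and 2567 in control, a small difference (log2 fold change -0.18 ± 0.05, adjusted p = 0.0114) that did not pass without control replicate 2 (adjusted p = 0.085), without fip1-2 replicate 1 (0.0783) or with DESeq2 (0.0592), in a span of 0.00225 to 0.085. HRE1 (AT1G72360) had 33.8 and 32.2 in fip1-2, against 107 and 101 in control, with a log2 fold change of -1.60 ± 0.18 (adjusted p = 5.06e-06). HRE1 overlaps AT1G72370, a far more abundant gene on the opposite strand with 6863 and 7383 normalised counts in fip1-2 and 7362 and 6646 in control. HRE2 had 6.15 and 3.11 in fip1-2, against 2.88 and 4.85 in control, and was not tested. The summed level of group VII, which RAP2.3 dominates, was 16599 and 16755 in fip1-2 and 14967 and 16487 in control.

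Group X held a fall, in a gene that passed the filter through control alone, and a rise. RRTF1 (AT4G34410), a redox-responsive regulator induced by wounding and jasmonate, stood at 8.19 and 5.19 in the fip1-2 libraries, against 38.4 and 38.8 in the control libraries. The groups were well apart, with a log2 fold change of -2.25 ± 0.33 (adjusted p = 4.90e-05). It overlaps AT4G34412 on the opposite strand, with 125 and 148 normalised counts in fip1-2 and 151 and 139.8 in control. RAP2.6L (AT5G13330), which takes part in wound healing and shoot regeneration, had 204 and 242 in fip1-2, against 140.3 and 139 in control, and rose with a log2 fold change of 0.66 ± 0.12 (adjusted p = 3.45e-04). RAP2.6 had 71.7 and 49.8 in fip1-2, against 66.3 and 69.9 in control, with overlapping groups and a 95% interval of -0.61 to 0.25 for the log2 fold change.

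**Figure D3:**
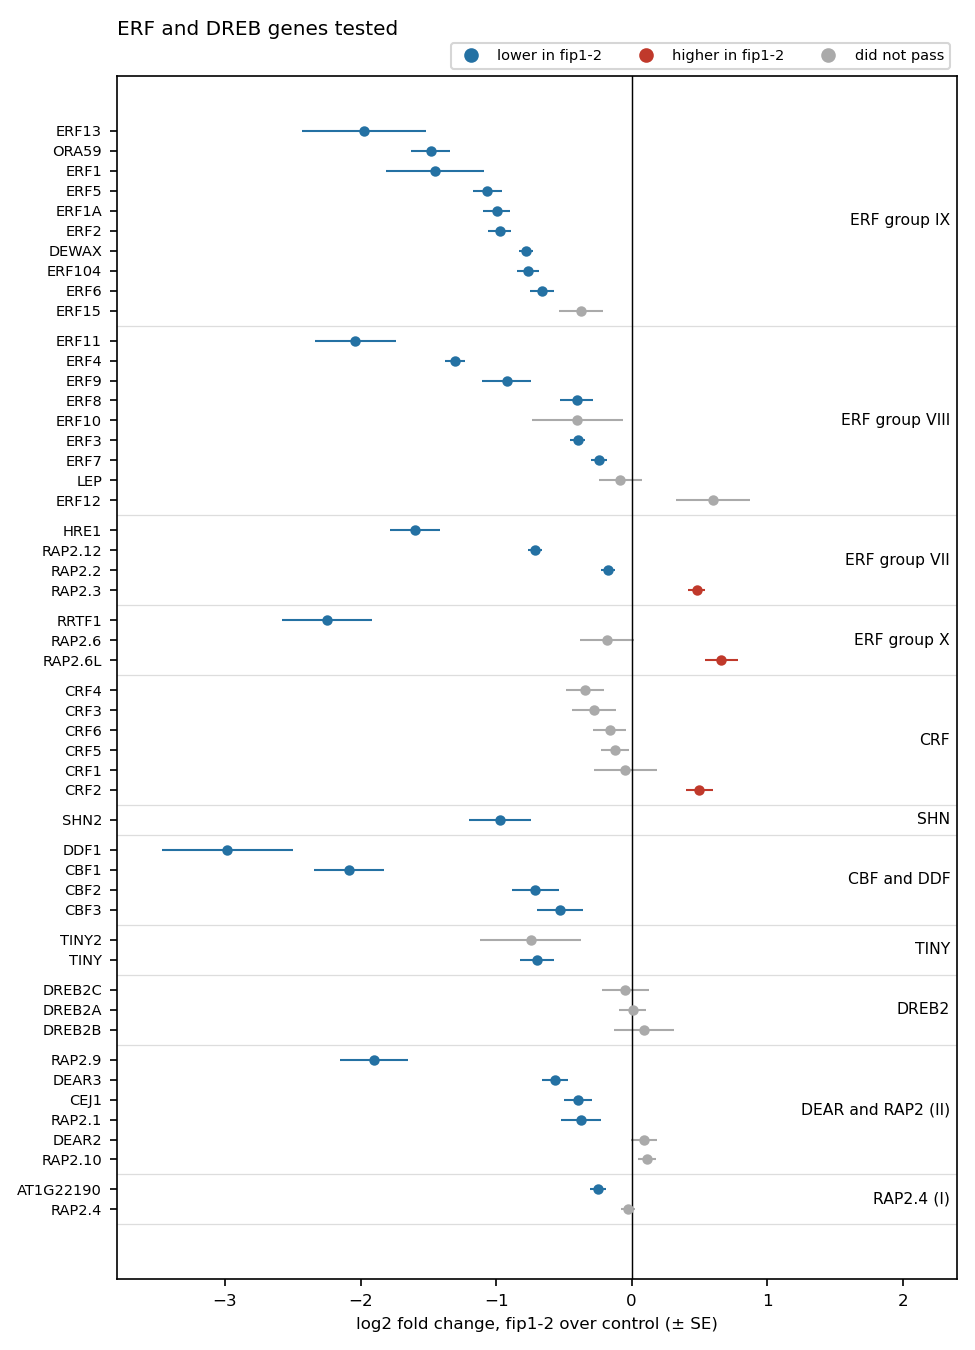
Log2 fold change of fip1-2 over control, with its standard error from limma, for the 50 members tested, by subgroup. Blue points were lower and red points higher in fip1-2 at an adjusted p under 0.05, and grey points did not pass. The points run from -2.98 in DDF1 to 0.66 in RAP2.6L.

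The cytokinin response factor genes gave 1 rise and no called fall among 6 tested, with 5 that did not pass. Of all genes tested 27.0% rose and 26.8% fell. In 5 of the 6 genes both fip1-2 libraries lay below both control libraries, where 39.0% of all genes tested did. CRF2 (AT4G23750), also known as TARGET OF MONOPTEROS 3 and thereby tied to auxin response, had 371 and 329 in fip1-2, against 262 and 232 in control, and rose with a log2 fold change of 0.50 ± 0.10 (adjusted p = 7.69e-04). CRF4 (AT4G27950) had 128 and 164 in fip1-2, against 199.8 and 169.9 in control, and its log2 fold change of -0.34 was at the edge of the threshold (adjusted p = 0.0526). It passed under 5 of its alternatives, over which the adjusted p ran from 0.0125 to 0.411. For CRF1, CRF3, CRF5 and CRF6 the log2 fold changes were -0.05, -0.28, -0.12 and -0.16, with 95% intervals of -0.54 to 0.45, -0.63 to 0.07, -0.34 to 0.10 and -0.42 to 0.10. The summed level of the 6 genes was 980.3 and 989 in fip1-2 and 981 and 975 in control.

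Of the SHINE genes, activators of wax and cutin synthesis, SHN2 (AT5G11190) had 32.8 and 24.9 in fip1-2, against 55.7 and 60.2 in control, and fell with a log2 fold change of -0.97 ± 0.23 (adjusted p = 0.00239). SHN1 had no read in the fip1-2 libraries and 7 and 5 reads in the control libraries, at least 1.87-fold lower in fip1-2 with a floor of 3 reads per library, a bound that covers counting error only. SHN3 had 7.17 and 9.34 in fip1-2, against 6.73 and 6.79 in control. SHN1 and SHN3 were not tested.

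Genes of the CBF and DDF type, the DREB1 regulators of cold and drought responses, fell in all 4 cases tested, with a median log2 fold change of -1.40. Without DDF1, which passed the filter through control alone, the median over CBF1, CBF2 and CBF3 was -0.71. Of all genes tested 26.8% fell, and of intron-free protein-coding genes, as these are, 38.8% did, with a median of -0.19. CBF1 (AT4G25490) stood at 20.5 and 39.4 in the fip1-2 libraries, against 151 and 108 in the control libraries, and its log2 fold change was -2.08 ± 0.26 (adjusted p = 1.08e-05). CBF2 (AT4G25470) stood at 61.5 and 61.2 in the fip1-2 libraries, against 114 and 90.3 in the control libraries, with a log2 fold change of -0.71 ± 0.17 (adjusted p = 0.00308). CBF3 (AT4G25480) stood at 62.5 and 69.5 in the fip1-2 libraries, against 106 and 87.4 in the control libraries, with a log2 fold change of -0.53 ± 0.17 (adjusted p = 0.0168). None of the 3 genes had overlapping groups, but CBF3 did not pass without control replicate 1 (adjusted p = 0.156), without fip1-2 replicate 1 (0.0963) or with DESeq2 (0.148), in a span of 0.00857 to 0.156.

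CBF1, CBF3 and CBF2 lie side by side on chromosome 4. CBF1 made up 14.2% and 23.2% of the summed normalised counts of the 3 genes in the fip1-2 libraries, and 40.7% and 37.8% in the control libraries. The groups did not overlap, and an exact two-sided permutation test gave p = 0.333, the smallest that 2 libraries against 2 allow. Few of the 50-base stretches of these genes occur elsewhere in the genome, with 2.48% in CBF1, 3.95% in CBF2 and 0.596% in CBF3.

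DDF1 (AT1G12610), which promotes gibberellin breakdown under salt stress, had 3.07 and 1.04 in fip1-2, against 18.3 and 45.6 in control. The log2 fold change of -2.98 ± 0.48 was the most negative of the members (adjusted p = 1.21e-04), but it rests on few reads in fip1-2 and unequal control libraries. Its value was -3.60 without control replicate 1 and -2.37 without control replicate 2, -1.91 with a pseudocount of 8 and -3.65 with one of 0.5, -3.87 with edgeR and -3.95 with DESeq2, all past the threshold. DDF2 had 1.02 and 1.04 in fip1-2, against 1.92 and 6.79 in control, and CBF4 had 1 read in each group. DDF2 and CBF4 were not tested.

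The 250 bases before the annotated starts of the CBF genes are shown because these neighbouring copies had log2 fold changes of unequal size. CBF1 is at chr4:13022997-13023246, minus strand, CBF2 at chr4:13016236-13016485, minus strand and CBF3 at chr4:13019401-13019650, minus strand of TAIR10.1. Capitals mark the same elements as above, and CBF2 alone of these windows held one of them, CGCGTT, an element bound by calmodulin-binding CAMTA factors. The annotated transcripts are 1217 bases long in CBF1, 986 in CBF2 and 1391 in CBF3. Windows cut at the annotated starts may therefore not cover matching stretches of these copies.
CBF1: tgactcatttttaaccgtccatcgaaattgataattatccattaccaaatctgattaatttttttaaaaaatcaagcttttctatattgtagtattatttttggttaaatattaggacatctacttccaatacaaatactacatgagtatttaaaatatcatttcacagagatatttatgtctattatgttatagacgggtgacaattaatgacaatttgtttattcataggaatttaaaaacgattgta
CBF2: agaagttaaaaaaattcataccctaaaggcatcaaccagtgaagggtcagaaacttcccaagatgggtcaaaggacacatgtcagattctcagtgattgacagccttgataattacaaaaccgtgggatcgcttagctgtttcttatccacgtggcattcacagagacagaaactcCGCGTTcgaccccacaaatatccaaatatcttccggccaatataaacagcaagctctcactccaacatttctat
CBF3: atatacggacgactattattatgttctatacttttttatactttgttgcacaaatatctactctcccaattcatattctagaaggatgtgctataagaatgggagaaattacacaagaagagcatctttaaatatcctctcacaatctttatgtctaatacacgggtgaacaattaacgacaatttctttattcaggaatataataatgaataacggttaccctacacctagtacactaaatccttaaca

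TINY (AT5G25810), a DREB factor that restrains growth under drought, had 142 and 185 in fip1-2, against 257 and 273 in control, and fell with a log2 fold change of -0.70 ± 0.13 (adjusted p = 3.14e-04). TINY2 had 10.2 and 9.34 in fip1-2, against 23.1 and 13.6 in control, and its log2 fold change of -0.75 did not pass (95% interval -1.54 to 0.05), though both fip1-2 libraries were lower. It passed without control replicate 2 (-1.09, adjusted p = 0.0476) and with quantile normalization (-0.97, adjusted p = 0.0475), in a span of 0.0475 to 0.538.

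The DREB2 genes showed no called difference among 3 tested, where 53.8% of all genes tested were called in either direction. DREB2A (AT5G05410), the main DREB2 factor of heat and drought responses, had 234 and 257 in fip1-2, against 243 and 245 in control. The libraries interleaved, and the 95% interval of its log2 fold change was -0.21 to 0.22. DREB2B had 44.0 and 63.3 in fip1-2, against 53.8 and 45.6 in control, and DREB2C, a factor of heat responses, had 84.0 and 69.5 in fip1-2, against 73.0 and 85.4 in control, with intervals of -0.38 to 0.56 and -0.42 to 0.33. Unadjusted p-values from limma were 0.939, 0.693 and 0.796, and edgeR and DESeq2 also called none of the 3. DREB2A and DREB2B overlap genes on the opposite strand, AT5G05420 with at most 4.15 normalised counts in a library, and AT3G11030 with 474 and 472 in fip1-2 and 383 and 382 in control.

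**Figure D4:**
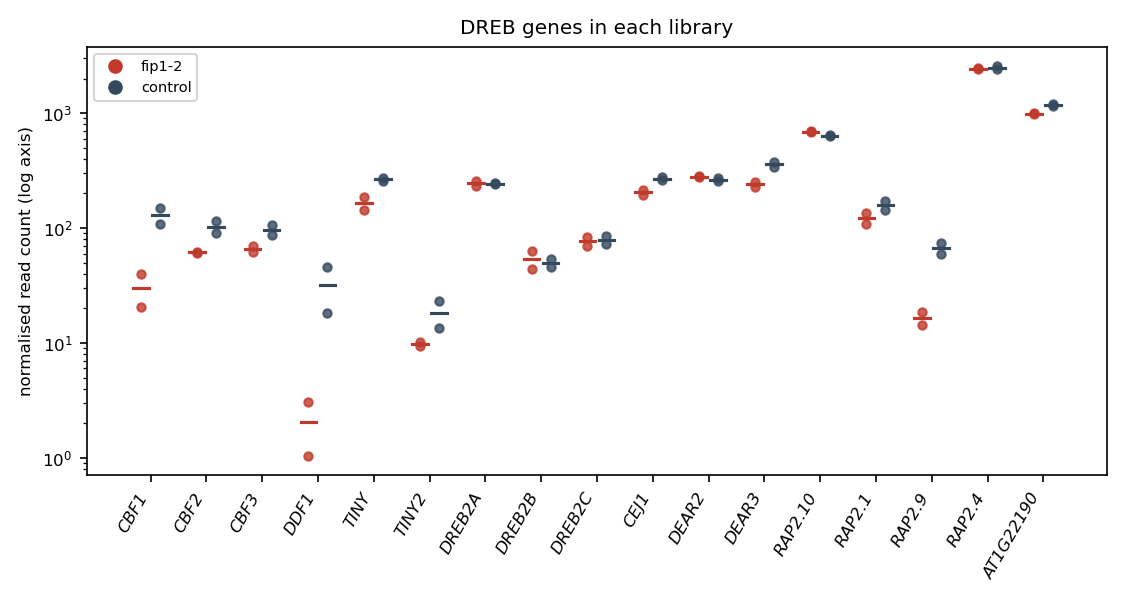
Normalised read count, on a log axis, of the DREB genes tested, for the 2 fip1-2 libraries (red) and the 2 control libraries (grey). Points are libraries and bars are group means. The groups are apart in CBF1, CBF2, CBF3, DDF1 and RAP2.9 and overlap in DREB2A, DREB2B, DREB2C and RAP2.4.

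Genes of the DEAR and RAP2.1 type, small DREB repressors that carry an EAR motif, fell in 4 of 6 cases, and 2 did not pass. Of all genes tested 26.8% fell, and of intron-free protein-coding genes, as these 6 are, 38.8% did. RAP2.9 (AT4G06746) stood at 14.3 and 18.7 in the fip1-2 libraries, against 59.6 and 74.7 in the control libraries, the largest fall of this type (log2 fold change -1.90 ± 0.25, adjusted p = 1.78e-05). DEAR3 (AT2G23340) had 254 and 229 in fip1-2, against 340.1 and 378 in control, with a log2 fold change of -0.57 ± 0.10, and CEJ1 (AT3G50260), cooperatively regulated by ethylene and jasmonate, had 193 and 216 in fip1-2, against 276 and 263 in control. CEJ1, at a log2 fold change of -0.40 ± 0.10 (adjusted p = 0.00496), did not pass with DESeq2 (adjusted p = 0.0696) or without fip1-2 replicate 1 (0.0581), in a span of 0.00126 to 0.0696.

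RAP2.1 (AT1G46768), a repressor that acts downstream of CBF and DREB2A, had 108 and 136 in fip1-2, against 144 and 172 in control. Its log2 fold change of -0.37 ± 0.15 passed narrowly (adjusted p = 0.0447) and did not pass under 6 alternatives, where it ran from -0.37 to -0.21 with adjusted p-values of 0.0685 to 0.337. Over all its alternatives the span was 0.0118 to 0.337. DEAR2 and RAP2.10 had log2 fold changes of 0.09 and 0.11, with 95% intervals of -0.11 to 0.29 and -0.03 to 0.26, and the fip1-2 libraries of both lay above the control libraries. RAP2.10 passed after removal of the length and GC trend described below (0.20, adjusted p = 0.0225), in a span of 0.0225 to 0.46. The window of RAP2.9, at chr4:4074736-4074985, minus strand of TAIR10.1, is shown because it holds CCGAC, on the reverse strand, in the member of this type that fell most. CCGAC was also present in the windows of CEJ1, which fell by less, and of RAP2.10, which did not pass and lay above control.
RAP2.9: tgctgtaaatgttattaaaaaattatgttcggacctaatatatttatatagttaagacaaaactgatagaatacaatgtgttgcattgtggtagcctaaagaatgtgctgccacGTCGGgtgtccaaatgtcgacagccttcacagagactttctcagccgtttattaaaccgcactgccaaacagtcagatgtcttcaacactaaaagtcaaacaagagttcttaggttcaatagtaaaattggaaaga

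RAP2.4 (AT1G78080), known as WIND1 for its part in wound-induced dedifferentiation, did not pass. It had 2426 and 2455 in fip1-2, against 2427 and 2548 in control, with a 95% interval of -0.14 to 0.08 for the log2 fold change. Its relative AT1G22190 had 987 and 994 in fip1-2, against 1193 and 1158 in control, and fell with a log2 fold change of -0.25 ± 0.06 (adjusted p = 0.00242).

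The order of levels among the members was much the same in both groups at the top. Per kb of transcript, RAP2.3, DEWAX, RAP2.12, RAP2.2 and RAP2.4 held the first 5 places in fip1-2 and in control. ERF4, at 344 per kb in fip1-2 and 849 per kb in control, had rank 10 in fip1-2 and rank 6 in control. The members are compact genes: 47 of 60 (78.3%) are annotated without an intron, against 20.5% of protein-coding genes in the table, and their median transcript length is 1216 bases, against 1516.

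Intron-free genes of the whole table were called lower more often than higher. The log2 fold change rose with transcript length over 19819 genes (Spearman correlation 0.30 across genes, which are not independent replicates), and of 3021 intron-free protein-coding genes tested 38.8% fell and 17.1% rose, with a median log2 fold change of -0.19. Among the intron-free members, 26 of 40 tested fell and 1 rose, with a median of -0.55, and among members with introns 4 of 10 fell and 2 rose, with a median of -0.11. The 40 include ERF1, ERF13, RRTF1, DDF1 and TINY2, which passed the filter through control alone, and all of these but TINY2 are among the falls. With the trend on length and GC content removed, 29 members fell and 4 rose, where 28.4% and 22.0% of all genes did, and the members' median was -0.43.

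Genes of ethylene synthesis and signalling, which lie upstream of many ERF genes, also contained more falls than rises, where 26.8% of all genes fell and 27.0% rose. Of 12 synthesis genes tested 7 fell and 3 rose, and of 12 signalling genes 7 fell and 2 rose, with median log2 fold changes of -0.43 and -0.31. EFE (AT1G05010), for an enzyme of the last step of ethylene synthesis, had 5054 and 5039 in fip1-2, against 8646 and 9286 in control, with a log2 fold change of -0.83. AT1G77330, of the same enzyme family, rose with a log2 fold change of 0.56. In signalling, EBF1, for an F-box protein that targets EIN3, fell with a log2 fold change of -0.80 ± 0.06, the kinase gene CTR1 with -0.46, the receptor gene ERS1 with -0.40 and EIN3 itself with -0.32. One of the rises in signalling, in EIN2, turned to -0.13 with the length and GC trend removed.

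Defence and RAV genes are likewise given beside the 26.8% of all genes tested that fell and the 27.0% that rose. Of 6 ethylene and jasmonate defence genes listed, 3 were tested and fell. PDF1.2 passed the filter through control alone, and the median log2 fold change of the other 2 was -0.54. The defensin gene PDF1.2, an ORA59 target, had 1.02 and 7.27 in fip1-2, against 68.2 and 46.6 in control, few reads for a gene with near-identical copies in the genome, with a log2 fold change of -3.46 ± 0.45 (adjusted p = 1.72e-05), and the chitinase gene HCHIB and PR4 had -0.68 and -0.40. Of 4 ethylene-responsive genes of the RAV class, 3 fell. TEM1 (AT1G25560) had 864 and 914 in fip1-2, against 2267 and 2359.7 in control, RAV2 and RAV1 had log2 fold changes of -0.89 and -0.47, and EDF3 did not pass at -0.28.

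Of 13 cold-regulated genes 6 rose and 4 fell, with a median log2 fold change of -0.03. COR15A had 12553 and 9876 in fip1-2, against 2954 and 2385 in control, and KIN1, KIN2 and AT2G16990 rose with log2 fold changes of 2.55, 0.62 and 1.21. KIN1 and KIN2 are similar neighbouring copies, between which the counting could have split reads. Of 8 genes tested in the list of DREB2A control and targets, 6 rose and 2 did not pass (median 0.61). LTI65, LEA7, HB-7 and HSFA3 had log2 fold changes of 4.19, 3.93, 0.97 and 0.82, and the 2 fip1-2 libraries of LEA7 were unequal, at 973 and 221. The seed markers given above were higher in the same libraries, and more so in fip1-2 replicate 1, and their part in these rises was not tested. Among 9 CBF regulators 2 rose and 3 fell, shares near the 27.0% and 26.8% of all genes. EICBP.B, a calmodulin-binding CAMTA gene, and the kinase gene OST1 were higher in fip1-2, at log2 fold changes of 0.56 and 0.49, the zinc finger gene RHL41 fell, with 64.5 and 66.4 in fip1-2, against 151 and 116 in control, and TEM1 is in this list too.

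Low-oxygen genes and cuticle genes are given beside the 27.0% of all genes that rose and the 26.8% that fell. Of 14 genes of low-oxygen response and oxygen sensing, 6 rose and 2 fell (median 0.32). The alcohol dehydrogenase gene ADH1 had 327 and 302 in fip1-2, against 147 and 133 in control, the sucrose synthase gene SUS1 and PRT6, for an enzyme that marks group VII proteins for degradation, passed upward at log2 fold changes of 0.85 and 0.33, but PRT6 stood at -0.19 (adjusted p = 0.0149) with the length and GC trend removed. FTM1 fell with -1.28. Of 10 wax and cutin genes, 4 rose and 4 fell (median -0.07). CER1, an alkane-forming wax gene that DEWAX represses, had 2297 and 1968 in fip1-2, against 919 and 833 in control, with a log2 fold change of 1.28 ± 0.07 (adjusted p = 4.28e-09). The part of DEWAX in this rise was not tested. GPAT8 and GPAT4 rose with 0.42 and 0.39, and KCS11 fell with -0.46.

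Touch, wound and clock genes are given beside the 26.8% of all genes tested that fell and the 27.0% that rose. Genes that respond to touch and wounding, many of which are induced together with ERF and CBF genes when plants are handled, fell in 9 of 13 cases tested, and 4 did not pass (median -0.57). The calcium sensor gene TCH3 had 263 and 298 in fip1-2, against 766 and 862 in control, and STZ, CML38 and WRKY40 fell with log2 fold changes of -1.50, -1.53 and -1.46. Of 10 clock genes 6 rose and 3 fell, but with the length and GC trend removed 2 of the rises turned, GI to -0.23 (adjusted p = 0.00164) and PRR5 to -0.05 (adjusted p = 0.44). The morning gene LHY had 144 and 120.4 in fip1-2, against 22.1 and 20.4 in control, PRR7 rose with 0.51, and the evening genes TOC1 and ELF4 fell with -0.80 and -1.13. The labels give no time of harvest, and the part of handling, harvest time or clock phase in the falls of ERF and CBF genes was not tested.

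**Figure D5:**
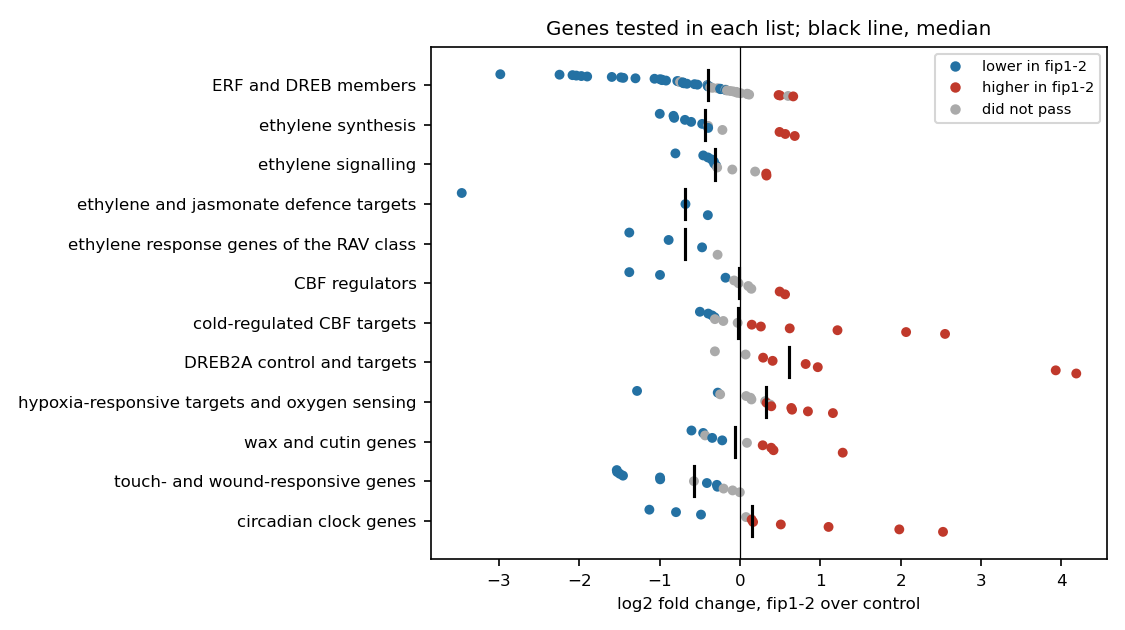
Log2 fold change of fip1-2 over control for each gene tested, in the members and in 11 lists of related genes. Points are genes (blue lower, red higher, grey did not pass) and black lines are medians, which are -0.40 in the members, -0.57 in touch- and wound-responsive genes and 0.61 in the list of DREB2A control and targets.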

How the data were processed

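The submitters' processing notes list HTSeq, HISAT2, edgeR, FastQC and CASAVA 1.4 without saying what each did, and no source here names a genome build or a strand setting. The design text names poly(A) tag sequencing, while the extract protocol describes fragmented oligo(dT)-selected mRNA, with no step that marks strand. The deposited values are a signal per gene, HTSeq counts per the file headers that the authors had normalized. All values of a library are integer multiples of its smallest nonzero value (100% of values within 1e-06), as counts divided by 1 size factor per library would be, so whole reads were recovered. These totals, with the spread of 2 replicates, limit precision.

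The values were used as deposited in limma 3.58.1 (R 4.3.3; lmFit, eBayes with trend, genotype as the only term, two-sided). edgeR 4.0.16 (TMM, quasi-likelihood) and DESeq2 1.42.0 were run on recovered reads, and edgeR called 5407 genes higher and 5324 lower. The alternatives were other pseudocounts (0.5, 8), filters (none, 50), quantile normalization, robust variances, removal of a spline trend on length and GC content, a replicate block and leaving out each library. The rule for the members uses no measured value, but this set of genes and the lists were chosen with earlier results of these data known. Any member may be named; from each list, up to 4 tested genes with the smallest p are named, except 1 that is not reported here. Names, structures and sequences come from RefSeq TAIR10.1, which holds all 60 members. The chi-square per gene between replicates was 2.72 in fip1-2 and 2.97 in control, above the sampling noise. In data simulated for fip1-2 against control over 19861 genes, limma recovered 95.5% of 2-fold changes and 79.1% of 1.5-fold changes, while 0.061% of the unchanged genes were called. Only 67 genes were changed 1.5-fold, 67 2-fold and 64 4-fold there, while 53.8% of genes tested were called in the data. With so unlike a share of changed genes, these rates do not carry over to the calls given here.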

Additional observations from a re-analysis of the deposited data

How the results depend on the processing

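Over the 14 alternatives, the number of members called lower was 24 to 31 and the number called higher 3 or 4, against 30 and 3 as reported. Leaving out single libraries gave 25 to 31 lower and 3 higher, DESeq2 25 and 3, and a filter at a mean of 50, which left 39 members to test, 24 and 3. The replicate block gave 31 lower and 3 higher, and over all genes 5517 higher and 5487 lower, against 5384 and 5342. Replicate 1 minus replicate 2 correlated at -0.01 between the groups, so the numbers are not taken to pair the libraries. Of the 33 members called, 27 (3 higher, 24 lower) passed in every alternative that tested them, and the other 6 are ERF1, ERF8, RAP2.2, CBF3, CEJ1 and RAP2.1. CRF4, RAP2.10 and TINY2 passed in some alternatives only. No called member changed sign. Among the related genes 5 turned when the length and GC trend was removed, with log2 fold changes of -0.13 in EIN2, 0.229 in AT4G30650, -0.191 in PRT6, -0.053 in PRR5 and -0.228 in GI, and the cause was not tested. The median log2 fold change of all genes stayed between -0.04 and 0.01. Genes listed here at fewer than about 10 normalised counts are limited by read depth, and 2 libraries per group limit the rest.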
